A study of Rattus norvegicus with 60 samples.

Results

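The response of mesenteric fat to experimental stroke was measured in rats whose dams had breathed room air during pregnancy. All 14 libraries of control animals from this tissue were used, out of 60 libraries in the whole study, and they were chosen by their labels alone. Sprague-Dawley rats were bred in house, and the pregnant dams spent 12 days in a vapour chamber, from gestational day 8 to day 20, with room air and no ethanol. At 5 months of age the offspring were dissected either 2 days after middle cerebral artery occlusion, which interrupts blood flow to one side of the brain (7 animals, 4 female and 3 male), or as stroke-naive littermates (7 animals, 4 female and 3 male). The labels describe no sham operation for the naive animals, so the surgery and anaesthesia cannot be told apart from the stroke itself. They also do not say which animals shared a litter. Total RNA was depleted of ribosomal RNA and sequenced from stranded libraries. The read counts per gene deposited by the authors were tested here.

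White fat stores fatty acids as triglyceride when insulin is high and releases them when catecholamines raise cyclic AMP. Its cells take up glucose through the insulin-regulated transporter GLUT4, break it down by glycolysis to pyruvate, and either oxidise the pyruvate in mitochondria or turn it into new fatty acids and glycerol. The same cells secrete hormones such as leptin and adiponectin. Mesenteric fat drains into the portal vein and also holds blood and lymph vessels, a mesothelial cover and immune cells.

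The libraries held 11.8 to 25.1 M (mega) counts, of which 5.87 to 18.0 M remained after rRNA genes were left out. Nuclear rRNA took 7.38 to 30.4% of the counts and did not differ detectably between the groups (16.4 ± 6.84% in stroke and 15.2 ± 5.78% in naive libraries, SD, n = 7 each; difference 1.24 percentage points, exact two-sided permutation test within sex, p = 0.757). Adiponectin (Adipoq) stood at 2810 to 5580 CPM in naive and at 2630 to 4410 CPM in stroke libraries, where CPM means counts per 1 M non-rRNA counts after scaling, and Plin1, which coats the lipid droplet, at 1100 to 1690 and 1120 to 1730 CPM, so every library carried the defining markers of adipocytes. Markers of neighbouring tissues were low or at 0 in some libraries: Prss1 of the exocrine pancreas was at 0 in 9 of the 14 libraries, Ckm of muscle in 2, Vil1 of intestine in 1, and Cpa1 of pancreas in 1. Several libraries stood apart. Naive male 3 had MHC class II genes at a summed 4190 CPM against 255 to 545 CPM in the other naive libraries, macrophage markers at 5960 against 1130 to 1680 CPM, and genes of DNA replication and mitosis at 1100 against 267 to 320 CPM. Stroke male 2 had collagens and other matrix genes at 42200 against 21800 to 26200 CPM in the other stroke libraries. Naive male 2 had the highest summed smooth muscle markers, at 18710 CPM, and stroke female 2 the lowest mesothelial markers, at 695 against 1710 to 2520 CPM. In bulk tissue, fewer cells of a type and less RNA per cell cannot be told apart.

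**Figure D1:**
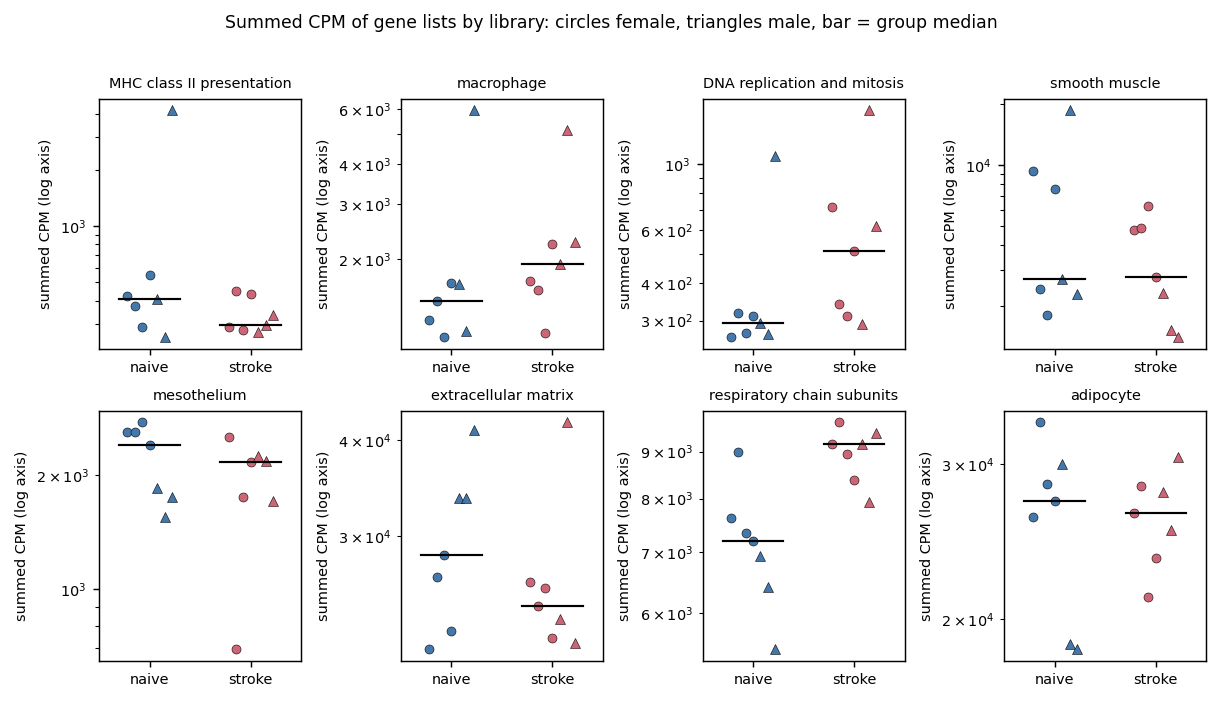
Summed CPM of 8 gene lists in each library (log axes), with naive libraries in blue and stroke libraries in red, circles for female and triangles for male animals, and bars at the group median (n = 7 each). The single high triangle in the naive group for MHC class II and DNA replication is naive male 3. Respiratory chain genes had a higher median in the stroke group, but the groups overlapped (naive up to 8993 CPM, stroke from 7925 CPM). Adipocyte markers overlapped as well.

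Of 16383 genes tested with edgeR's quasi-likelihood test with sex as a covariate, 763 passed a Benjamini-Hochberg adjusted p of 0.05, which is 4.66% of the genes. Expression was higher after stroke for 549 of them (3.35% of the genes tested) and lower for 214 (1.31%). The changes were moderate: the median rise was 0.50 and the median fall was -0.60 on the log2 scale, and 83 genes moved more than 2-fold, 47 up and 36 down. The median change over all genes tested was -0.02, and 47.0% of them were above 0. In 166 of the called genes every stroke library lay above every naive one, and in 47 every stroke library lay below. Over all genes tested, such full separation was seen upward for 1.09% and downward for 0.378%. Each of the 763 genes had the same direction in females and in males. They were chosen by their change over both sexes in these same libraries, which favours such agreement, so it is no separate support. When each library was left out in turn, 339 (without naive female 1) to 1068 genes (without naive female 2) were called, and 278 of the 763 were called in all 14 of these runs. The count fell more than 1.5 times below 763 without naive female 1 (339), naive female 3 (390), naive female 4 (431), naive male 1 (374), naive male 2 (506), stroke female 1 (398), stroke female 4 (369) or stroke male 3 (399). In the authors' deposited table for the same comparison, 1465 genes had an adjusted p under 0.05, and 761 of the 763 were among them, all with the same sign. That table describes the same animals, so this is no separate support. Its log2 change was much smaller for some genes, such as Gulo (-1.61, here -3.72) and Fasn (1.12, here 2.29). For Cpt1b it was close (1.78, here 1.92).

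Among the lists with members called higher were the respiratory chain (35 of 63 subunits), glycolysis and glucose uptake (10 of 30), fatty acid and triglyceride synthesis (8 of 24) and cholesterol synthesis (7 of 24), against 3.35% of all genes. In each of these 4 lists no member was called lower. The lists were chosen with earlier results of these data known, so their counts are descriptions and no separate support. Lists of inflammatory, chemokine, complement and collagen genes had no member called in either direction by edgeR, where 4.66% of all genes were called.

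**Figure D2:**
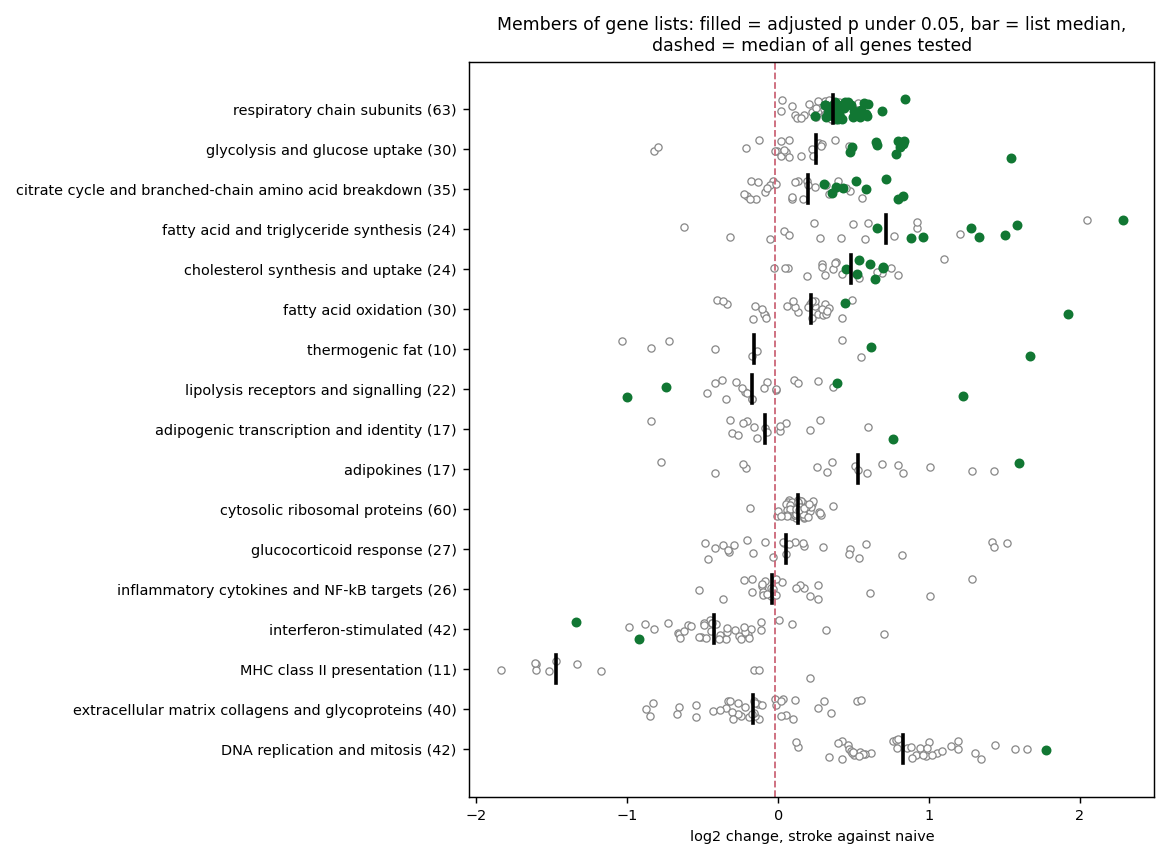
Log2 change of stroke against naive animals for each tested member of 17 gene lists, with the number of members in brackets. Filled points passed an adjusted p of 0.05, the black bar is the list's median and the dashed line the median of all genes tested at -0.02; respiratory chain genes lie to the right of that line in all 63 cases.

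Glycolysis splits glucose into pyruvate in the cytosol. Called genes lay along the pathway from the transporter to lactate dehydrogenase. Slc2a4, which encodes GLUT4, ranged from 33.1 to 119.6 CPM in the naive libraries (median 61.7) and 66.4 to 243 CPM in the stroke libraries (median 186). The groups overlapped at their edges, and the log2 change was 1.54 ± 0.29 (SE; adjusted p = 0.0111, edgeR). The glucose transporter genes Slc2a1 (-0.01), Slc2a3 (-0.21) and Slc2a5 (0.47), did not pass the test. Pfkl, the liver-type phosphofructokinase subunit that sets the pace of the pathway in many tissues, ranged from 52.2 to 78.0 CPM in the naive libraries (median 57.5) and 85.2 to 131 CPM in the stroke libraries (median 103). No stroke library overlapped the naive group (log2 change 0.83 ± 0.11, adjusted p = 0.00213). Aldoa, the aldolase of the next step, ranged from 424 to 567 CPM in the naive libraries (median 516) and 738 to 1334 CPM in the stroke libraries (median 801), again without overlap (log2 change 0.79 ± 0.13, adjusted p = 0.00595). Phosphoglycerate kinase 1 (Pgk1), which makes ATP from the split sugar, ranged from 123 to 147 CPM in the naive libraries (median 127) and 185 to 243 CPM in the stroke libraries (median 194). It had the smallest adjusted p among the pathway's members (log2 change 0.65 ± 0.07, adjusted p = 0.00198), the same value as for Eno1, the enolase of the last step but one. Eno1 ranged from 155 to 211 CPM in the naive libraries (median 176) and 277 to 418 CPM in the stroke libraries (median 305) (log2 change 0.82 ± 0.10, adjusted p = 0.00198). The groups were also fully apart for Gpi, Gapdh, Pgam1 and Ldha, which rose by 0.49, 0.65, 0.81 and 0.78 on the log2 scale. Pkm, the pyruvate kinase, rose by 0.48 (adjusted p = 0.0466), with overlap, and its call ended in 11 of the 14 runs that left out a library (adjusted p up to 0.0986, without naive male 1).

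Other genes of the pathway did not pass. The hexokinases Hk1 (0.23) and Hk2 (0.38) were among these, and so were the muscle and platelet forms of phosphofructokinase, Pfkm at 0.23 and Pfkp at 0.15. Triose phosphate isomerase (Tpi1) stood at 0.29 with an adjusted p of 0.196, and the lactate transporter Slc16a1 at -0.02. Pfkfb3, which makes the activator of phosphofructokinase, stood at -0.82 (adjusted p = 0.135), and Pck1, which supplies glycerol phosphate from pyruvate, at -0.80 (adjusted p = 0.198). The list's median change was 0.25, and 9 or 10 of its members were called in every run without one library. In the list of genes that answer low oxygen, 1 of 21 members was called, near the share of all genes called (4.66%). That member was Ldha, shared with glycolysis. At an unadjusted p under 0.05 (edgeR), 4 of the 21 were higher and 2 lower. The hypoxia list's median was -0.08. Gapdh and other glycolytic genes have many processed copies in the rat genome, and how the authors' counting treated reads that fit several copies is not given in the sources used here.

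**Figure D3:**
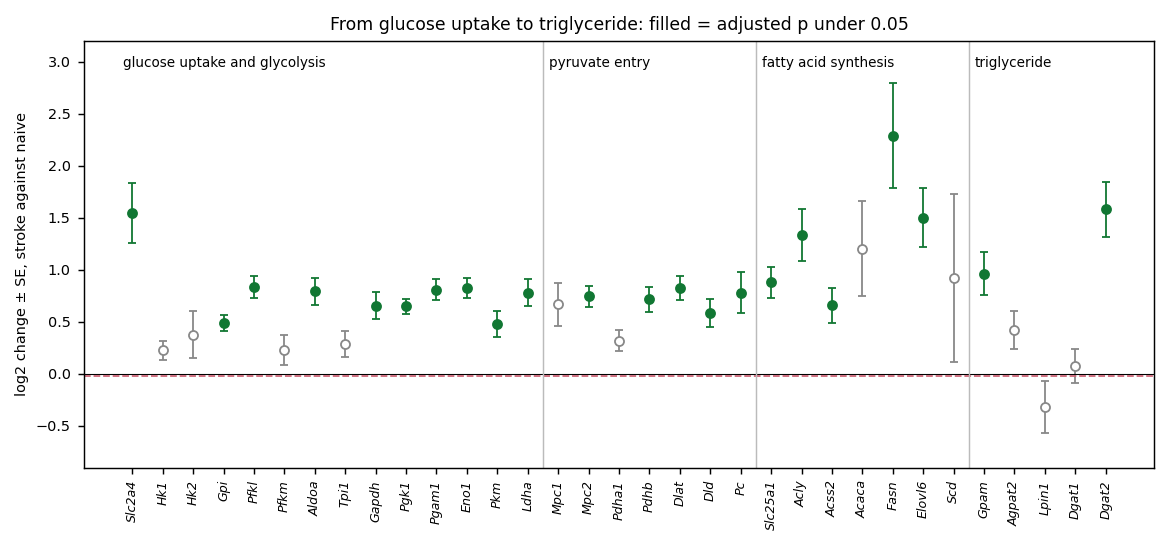
Log2 change with its standard error for genes in the order of the pathway, from glucose uptake through pyruvate entry into mitochondria to fatty acid and triglyceride synthesis. Filled points passed an adjusted p of 0.05; they include Slc2a4 at 1.54, Dlat at 0.82, Fasn at 2.29 and Dgat2 at 1.58, while Hk1, Hk2 and Dgat1 did not pass.

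Pyruvate crosses the inner mitochondrial membrane through a carrier of which Mpc2 is one subunit, and the pyruvate dehydrogenase complex turns it into acetyl-CoA. Mpc2 ranged from 42.4 to 72.7 CPM in the naive libraries (median 60.0) and 84.9 to 129.6 CPM in the stroke libraries (median 93.4). The groups did not overlap (log2 change 0.74 ± 0.10, adjusted p = 0.00269). Dlat, the core acetyltransferase of the dehydrogenase complex, ranged from 43.2 to 86.9 CPM in the naive libraries (median 67.6) and 92.3 to 139.6 CPM in the stroke libraries (median 114), also without overlap (log2 change 0.82 ± 0.12, adjusted p = 0.00393). Pdhb and Dld of the same complex rose by 0.72 and 0.58. The kinases that switch the complex off did not pass: Pdk4, the isoform that fasting and glucocorticoids are known to raise, stood at -0.37 ± 0.21 (adjusted p = 0.324), and Pdk1 and Pdk2 both at 0.07. In the citrate cycle, malate dehydrogenases Mdh1 and Mdh2 rose by 0.79 and 0.51, fumarase (Fh) by 0.39, Dlst by 0.36 and Idh3g by 0.43. Citrate synthase (Cs) stood just outside the threshold at 0.38 (adjusted p = 0.059). The list that joins the citrate cycle with the breakdown of branched-chain amino acids had 9 of 35 members called. All were higher, where 3.35% of all genes were called higher, and the median was 0.20. Bckdk, the kinase that inhibits branched-chain ketoacid dehydrogenase, was also among them (log2 change 0.30 ± 0.07, adjusted p = 0.0279). In runs without one library the count for this list lay between 5 (without naive female 1 or stroke female 4) and 13.

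The respiratory chain passes electrons from NADH and succinate to oxygen and uses the proton gradient to make ATP. Its nuclear-encoded subunits were examined, and those encoded in mitochondrial DNA were not analysed here. All 63 tested subunits had a positive change, and 35 passed the test, 0 of them lower. The calls were spread over the chain: 13 of 27 subunits of complex I, 2 of 4 of complex II, 6 of 9 of complex III, 5 of 10 of complex IV, 8 of 12 of ATP synthase, and Cycs, the mobile carrier cytochrome c. The changes were small and even, with a median of 0.36 and a range of 0.02 to 0.84 on the log2 scale, against -0.02 for all genes. Uqcr10, a small subunit of complex III, ranged from 50.1 to 67.9 CPM in the naive libraries (median 54.4) and 71.9 to 80.3 CPM in the stroke libraries (median 75.3). Its groups did not overlap although the change was only 0.44 ± 0.06 (adjusted p = 0.00361). In a fit of all 30 libraries of this tissue, its change in controls did not pass (adjusted p = 0.0513, edgeR). Atp5po, the stalk subunit that ties the ATP synthase motor to the membrane, ranged from 85.1 to 132 CPM in the naive libraries (median 109.7) and 143 to 168 CPM in the stroke libraries (median 160.2), without overlap (log2 change 0.54 ± 0.08, adjusted p = 0.00393). Sdhd, a membrane anchor of succinate dehydrogenase, ranged from 102 to 136 CPM in the naive libraries (median 113) and 148 to 188 CPM in the stroke libraries (median 164), again apart (log2 change 0.50 ± 0.07, adjusted p = 0.00397). Cox6b1, a subunit of cytochrome c oxidase, ranged from 71.9 to 103 CPM in the naive libraries (median 80.0) and 102 to 128 CPM in the stroke libraries (median 124), where the groups touched (log2 change 0.55 ± 0.08, adjusted p = 0.00393). Ndufb5 of complex I rose by 0.50 ± 0.08 (adjusted p = 0.0052) and Cycs by 0.84 ± 0.19 (adjusted p = 0.0254).

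The median change over the 63 subunits was 0.28 in females and 0.51 in males. The number called was 18 without naive female 1, 3 or 4 or stroke female 1, between 19 and 23 without naive male 1, 2 or 3, stroke female 2 or stroke male 1 or 3, and 48 without naive female 2. Naive female 2 had the highest summed respiratory chain level of the naive group. The list's median lay between 0.32 and 0.42 in these runs. With naive male 3 and stroke male 2 both left out, 24 subunits were called and the median was 0.33. Summed adipocyte markers were 18470 to 33480 CPM in naive and 21200 to 30610 CPM in stroke libraries, and their part in the result was not tested. Genes for proteins of the cytosolic ribosome had a median of 0.13 and 0 of 60 members called by edgeR, with 5 at an unadjusted p under 0.05 and 2 called by DESeq2.

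**Figure D4:**
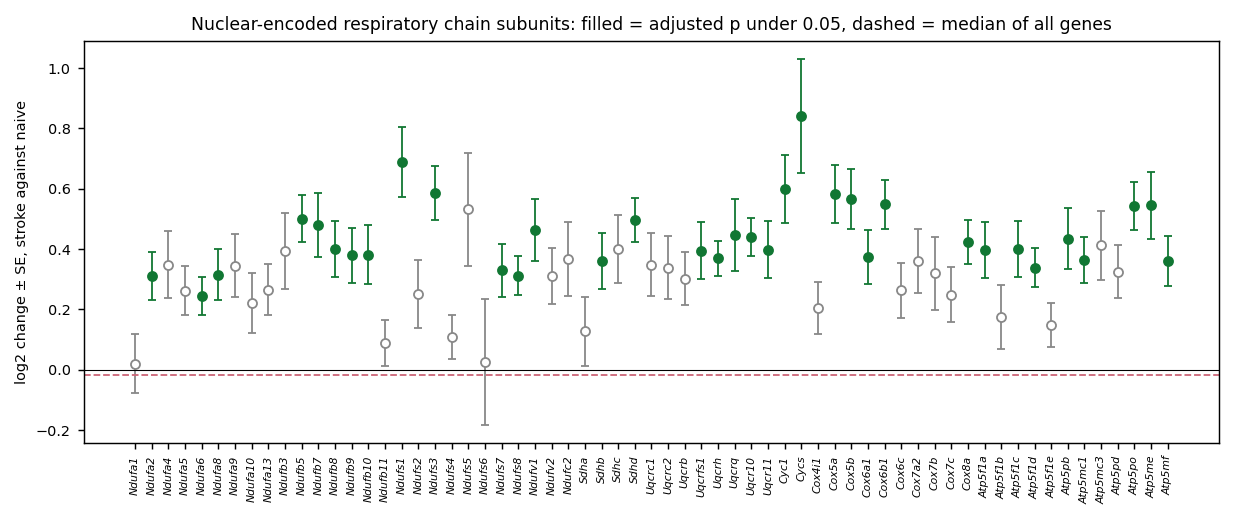
Log2 change with its standard error for the 63 nuclear-encoded subunits tested, ordered from complex I at the left to ATP synthase at the right. Filled points passed an adjusted p of 0.05 (35 subunits), and all 63 points lie above the dashed median of all genes at -0.02.

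Promoters of respiratory chain genes are known to hold sites for ETS-family factors and for nuclear respiratory factor 1, so the 250 bases before the start of each gene were searched for CCGGAAG, the core of an ETS site, and for GCATGCGC, the core of an NRF1 site, on both strands. The sequences come from RefSeq (build GRCr8), where 30 of the 35 called subunits were found by symbol. CCGGAAG was present in 13 of the 30 (43.3%), in 17 of the 54 found among all tested subunits (31.5%), in 13.5% of the promoters of genes tested and in 7.74% of all promoters in the set. GCATGCGC was present in 5 of the 30 (16.7%) and in 6 of the 54 (11.1%), against 4.11% of the promoters of genes tested and 2.38% of all promoters. For glycolysis and glucose uptake, CCGGAAG was found in 0 of 27 promoters and GCATGCGC in 2 (7.41%). Of 61 tested mitochondrial ribosomal genes found, 12 held CCGGAAG (19.7%) and 5 GCATGCGC (8.2%). Of the 17 called among them, 2 held CCGGAAG (11.8%) and 2 GCATGCGC. Other letters were also searched for. AAGGTCA, of an estrogen-related receptor site, was in 5 of 54 subunits (9.26%) and 0 of 27 glycolysis promoters, against 2.61% of genes tested. ACGTG, a hypoxia response core, was in 13 of the 54 (24.1%) and 10 of the 27 (37%), against 21.2%. TTCNNNGAA, of a STAT5 site, was in 4 (7.41%) and 3 (11.1%), against 5.94%. Letters that match are a description and do not show that a factor binds. The promoters of 3 called subunits are shown as examples of CCGGAAG or GCATGCGC matches. Each sequence is written 5′ to 3′ on the gene's strand and ends at the base before the start. Capitals mark the ETS letters (as CTTCCGG, the opposite strand) in Sdhd (chr8:59850642-59850891, minus strand) and Uqcrh (chr5:134790883-134791132, minus strand), and the 2 overlapping NRF1 matches in Atp5po (chr11:44657484-44657733, minus strand).
Sdhd: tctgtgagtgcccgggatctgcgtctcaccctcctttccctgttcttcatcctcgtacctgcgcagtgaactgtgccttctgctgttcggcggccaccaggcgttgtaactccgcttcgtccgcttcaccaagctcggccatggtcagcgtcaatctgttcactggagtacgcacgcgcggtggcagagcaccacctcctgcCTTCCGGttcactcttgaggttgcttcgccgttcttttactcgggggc
Uqcrh: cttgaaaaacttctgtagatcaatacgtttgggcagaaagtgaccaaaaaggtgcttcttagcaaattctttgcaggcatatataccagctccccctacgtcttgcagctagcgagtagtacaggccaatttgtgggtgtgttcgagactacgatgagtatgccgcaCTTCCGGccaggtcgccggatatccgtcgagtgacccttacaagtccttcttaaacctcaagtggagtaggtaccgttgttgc
Atp5po: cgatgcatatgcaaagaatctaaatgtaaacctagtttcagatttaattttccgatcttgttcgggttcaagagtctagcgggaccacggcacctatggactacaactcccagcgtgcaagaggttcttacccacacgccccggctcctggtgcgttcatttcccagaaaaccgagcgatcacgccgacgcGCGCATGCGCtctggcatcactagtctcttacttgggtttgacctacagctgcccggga
In Sdhd the match lies 48 to 42 bases before the start, in Uqcrh 83 to 77 bases, and in Atp5po 59 to 50 bases. Uqcrh, a hinge subunit of complex III, rose by 0.37 ± 0.06 (adjusted p = 0.0052).

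Further lists covered other parts of the mitochondrion. One of mitochondrial ribosomal proteins was drawn up after the values were seen and, like the other lists, is only described. It had 22 of 76 members called, 0 lower, and a median of 0.29. Similar later lists gave 6 higher of 24 for protein import, 5 higher and 1 lower of 41 for the carriers of the inner membrane and 5 higher of 14 for pyruvate entry, where 3.35% of all genes were called higher and 1.31% lower. Slc25a5, an ATP/ADP carrier, ranged from 127 to 212 CPM in the naive libraries (median 146) and 217 to 289.9 CPM in the stroke libraries (median 252). The groups were apart (log2 change 0.72 ± 0.11, adjusted p = 0.00397). Slc25a10, the dicarboxylate carrier that is abundant in white fat, ranged from 48.6 to 129 CPM in the naive libraries (median 58.5) and 112 to 273 CPM in the stroke libraries (median 176) (log2 change 1.41 ± 0.21, adjusted p = 0.00516), and Slc25a1, which exports citrate for fatty acid synthesis, rose by 0.88 ± 0.15 (adjusted p = 0.0078). Slc25a30 was the only one of the 41 carriers called lower (log2 change -1.08 ± 0.23, adjusted p = 0.0194). The mitochondrial chaperonin pair Hspd1 and Hspe1 rose by 0.57 and 0.54. Their calls ended in 8 and 4 of the 14 runs without a library, with adjusted p up to 0.0748 and 0.0596. Ppargc1a, the coactivator best known for driving mitochondrial growth, stood at -0.84 ± 0.35 and did not pass (adjusted p = 0.178).

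The smallest adjusted p of all genes was that of Cpt1b, the muscle-type carnitine palmitoyltransferase that admits long-chain fatty acids to mitochondria for oxidation. It ranged from 12.7 to 17.1 CPM in the naive libraries (median 14.4) and 45.9 to 80.0 CPM in the stroke libraries (median 51.4). The groups did not overlap, the rise was 3.79-fold (log2 change 1.92 ± 0.13, adjusted p = 1.56e-05), and the adjusted p stayed at or below 0.000157 whichever library was left out. The change was 1.67 in females and 2.26 in males. Its neighbour Chkb, which can be transcribed together with it, stood at 0.29 ± 0.10 (adjusted p = 0.0935). Cpt1a, the widely expressed form of the enzyme, stood at -0.15 ± 0.16 (adjusted p = 0.604). In the fatty acid oxidation list 2 of 30 genes were called, both higher, against 3.35% of all genes called higher, and the median was 0.22. The second call, Hadhb of the trifunctional protein (log2 change 0.44 ± 0.11, adjusted p = 0.0361), ended in 12 of the 14 runs without a library. Fabp3, the fatty acid binding protein of heart and muscle, ranged from 2.75 to 5.83 CPM in the naive libraries (median 4.68) and 5.44 to 30.4 CPM in the stroke libraries (median 12.5). Only the lowest stroke library fell inside the naive range (log2 change 1.67 ± 0.22, adjusted p = 0.00269). Cidea, a lipid droplet protein of thermogenic and white fat, rose by 0.61 ± 0.16 (adjusted p = 0.0457), and this call ended in 12 of the 14 runs. Fabp3 and Cidea were the 2 members called of 10 thermogenic genes, a list with a median of -0.16. Ucp1, the uncoupling protein of brown fat, had counts in 11 libraries and too few to be tested.

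Of 24 genes for making fatty acids and triglyceride, 8 were called higher and 0 lower, and the median change was 0.71 with all libraries and 0.47 without stroke female 3. Fasn, the fatty acid synthase, ranged from 427 to 2075 CPM in the naive libraries (median 641) and 478 to 11002 CPM in the stroke libraries (median 3623). Stroke male 2 was as low as the naive animals, naive female 2 was the highest naive library, and the change was 2.29 ± 0.51 (adjusted p = 0.0244). The call ended in 4 of the 14 runs, those without naive female 1, 3 or 4 or stroke male 3, with adjusted p up to 0.0616 without the last. With naive male 3 and stroke male 2 both left out it was kept (adjusted p = 0.0176). Dgat2, which adds the last fatty acid to triglyceride, ranged from 141 to 543 CPM in the naive libraries (median 267) and 615 to 1288 CPM in the stroke libraries (median 785). Here the groups were fully apart (log2 change 1.58 ± 0.27, adjusted p = 0.0078). Acly, which splits citrate into cytosolic acetyl-CoA, ranged from 162 to 277 CPM in the naive libraries (median 209) and 269 to 1259 CPM in the stroke libraries (median 393). The groups overlapped narrowly (log2 change 1.33 ± 0.25, adjusted p = 0.0114). Elovl6, which lengthens palmitate, ranged from 11.1 to 36.9 CPM in the naive libraries (median 17.2) and 33.1 to 135 CPM in the stroke libraries (median 43.1) (log2 change 1.5 ± 0.28, adjusted p = 0.0113), and its highest library, stroke female 3, stood far above the rest of its group. Mlxipl encodes ChREBP, the transcription factor that answers glucose, and ranged from 27.1 to 73.3 CPM in the naive libraries (median 53.9) and 43.3 to 205 CPM in the stroke libraries (median 104) (log2 change 1.28 ± 0.23, adjusted p = 0.0101). Gpam, the first enzyme of glycerolipid assembly, rose by 0.96 ± 0.21 (adjusted p = 0.0217, lost in 3 of the 14 runs), and Acss2, which activates acetate, by 0.66 ± 0.17 (adjusted p = 0.0428, lost in 12 of the 14 runs).

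Several members with large estimates did not pass. Acaca, the acetyl-CoA carboxylase of fatty acid synthesis, stood at 1.2 ± 0.45 (adjusted p = 0.146), the lipase-like Pnpla3 at 2.05 ± 0.78 (adjusted p = 0.147) and Scd, the stearoyl-CoA desaturase, at 0.92 ± 0.81 (adjusted p = 0.532). Srebf1, the transcription factor through which insulin raises these genes, was just outside the threshold at 0.50 ± 0.14 (adjusted p = 0.0577). In runs without one library the list had 5 (without naive female 1, 3 or 4) to 10 members called, and 3 in the fit of all 30 libraries of this tissue.

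Of 24 genes of cholesterol synthesis and uptake 7 were called higher and 0 lower, and the median was 0.49. Mvk, mevalonate kinase, ranged from 8.78 to 13.3 CPM in the naive libraries (median 10.7) and 13.4 to 17.6 CPM in the stroke libraries (median 16.1). The groups did not overlap (log2 change 0.52 ± 0.10, adjusted p = 0.0118). Acat2, the cytosolic thiolase that starts the pathway, rose by 0.61 ± 0.10 (adjusted p = 0.00715) and Fdps, which makes farnesyl diphosphate, by 0.53 ± 0.11 (adjusted p = 0.0182). The remaining calls, Idi1, Cyp51, Nsdhl and Ebp, were between 0.45 and 0.70, and were lost in 7, 8, 9 and 11 of the 14 runs in that order. Between 3 and 8 members were called when each library was left out, 3 without naive female 1, naive female 3 or stroke female 4 and 4 without naive female 4, naive male 1, naive male 2 or stroke male 2.

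**Figure D5:**
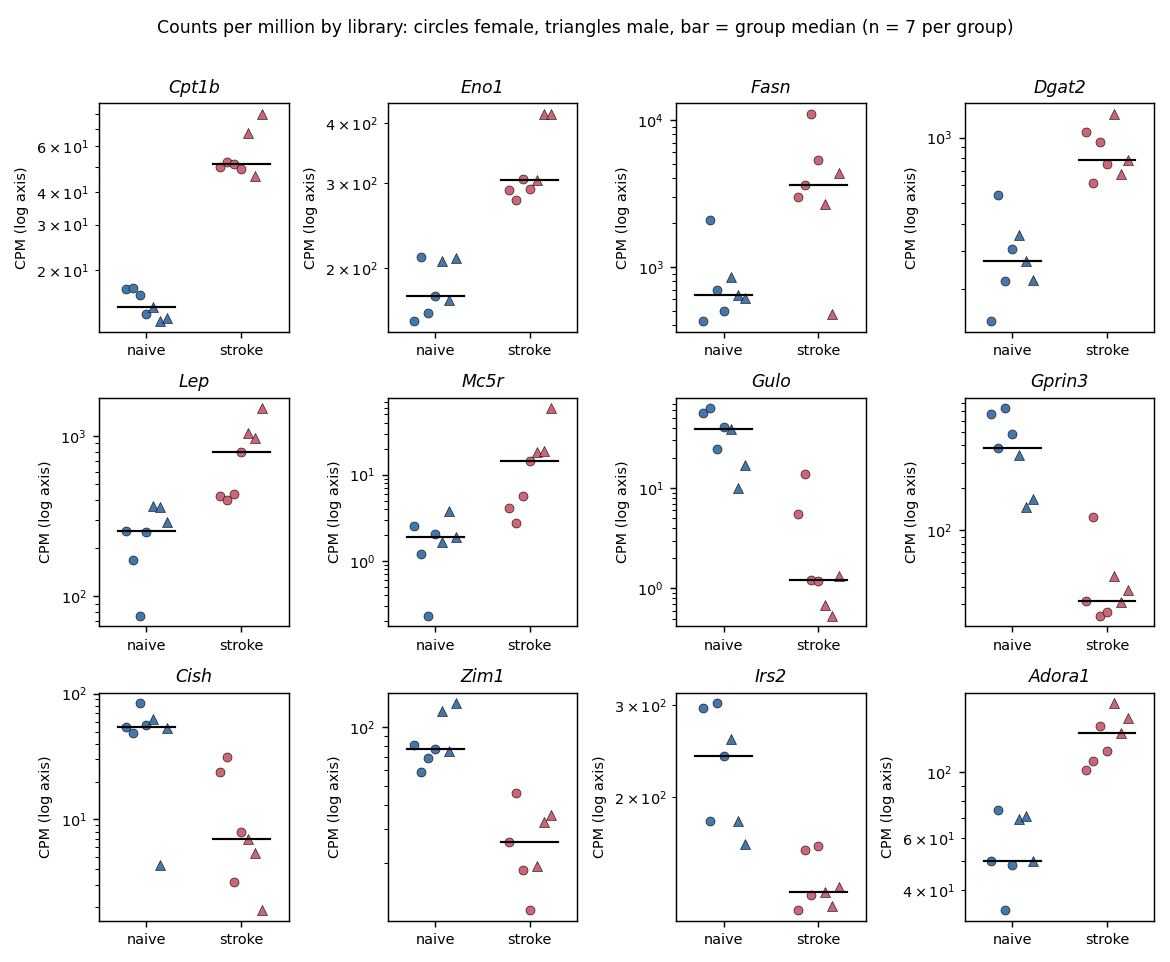
CPM (log axes) of 12 genes in each library, with naive libraries in blue and stroke libraries in red, circles for female and triangles for male animals, and bars at the group median (n = 7 each). Cpt1b, Eno1, Dgat2, Lep and Adora1 are fully higher and Gprin3, Zim1 and Irs2 fully lower after stroke, while single libraries overlap for Fasn, Mc5r, Gulo and Cish.

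Hormone and receptor genes are described next. Leptin (Lep), which reports fat stores to the brain, ranged from 75.6 to 367 CPM in the naive libraries (median 256) and 399 to 1489.9 CPM in the stroke libraries (median 801). All stroke libraries were higher than all naive ones, a 3.02-fold rise (log2 change 1.59 ± 0.25, adjusted p = 0.00595), with 1.45 in females and 1.78 in males. It was the only call among 17 adipokines, against 3.35% of all genes called higher, and the list's median was 0.53. Adipoq stood at -0.21 ± 0.16 (adjusted p = 0.465) and resistin (Retn) at 1.005 ± 0.35 (adjusted p = 0.116). Mc5r, a melanocortin receptor that in rodent fat cells can drive lipolysis, had the largest rise among the genes named here and ranged from 0.23 to 3.76 CPM in the naive libraries (median 1.91) and 2.72 to 58.8 CPM in the stroke libraries (median 14.6). The groups overlapped slightly at low levels (log2 change 2.89 ± 0.53, adjusted p = 0.011). Mrap, the accessory protein that melanocortin receptors need at the cell surface, rose by 1.27 ± 0.24 (adjusted p = 0.0124), and Mc2r, the corticotropin receptor, stood at -0.10 (adjusted p = 0.8).

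Receptors that restrain lipolysis moved in both directions. Adora1, the adenosine receptor that lowers cyclic AMP in fat cells, ranged from 34.1 to 74.8 CPM in the naive libraries (median 50.1) and 101 to 172 CPM in the stroke libraries (median 135), without overlap (log2 change 1.22 ± 0.15, adjusted p = 0.00198). Ptger3, a prostaglandin E receptor with the same coupling, rose by 0.39 ± 0.10 (adjusted p = 0.0451), a call that ended in 11 of the 14 runs without a library. Hcar2, the receptor for ketone bodies and niacin, fell to 12.4 to 28.9 CPM from 22.8 to 80.8 CPM in naive libraries (log2 change -1.004 ± 0.25, adjusted p = 0.0409), and its call ended in 11 of the 14 runs. Irs2, an adaptor of the insulin receptor that is known to fall when insulin acts, ranged from 163 to 303 CPM in the naive libraries (median 240.2) and 121 to 161 CPM in the stroke libraries (median 132). Every stroke library was lower (log2 change -0.75 ± 0.13, adjusted p = 0.00866). The beta-adrenergic receptors Adrb1 and Adrb3 stood at -0.17 and -0.42 and did not pass. The lipases did not pass either, with Pnpla2 at -0.35 ± 0.15 (adjusted p = 0.179), Lipe at 0.15 ± 0.16 (adjusted p = 0.607) and lipoprotein lipase (Lpl) at -0.21 ± 0.19 (adjusted p = 0.543). Angptl4, an inhibitor of lipoprotein lipase, was below the naive mean of its sex in all 7 stroke libraries but did not pass (-0.48 ± 0.21, adjusted p = 0.196). Slc27a1, a fatty acid transport protein, fell by 0.56 ± 0.15 (adjusted p = 0.0459), and this call ended in 11 of the 14 runs. Across the 22 members of the lipolysis list 2 rose, 2 fell and the median was -0.17, where 3.35% of all genes were called higher and 1.31% lower.

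Cish, a feedback inhibitor of the SOCS family that STAT5 switches on after growth hormone, prolactin or interleukin 2, was among the strongest decreases. It ranged from 4.30 to 84.4 CPM in the naive libraries (median 54.7) and 1.89 to 31.5 CPM in the stroke libraries (median 6.93). In the naive group 6 of 7 animals lay between 48.4 and 84.4 CPM, and naive male 2 alone at 4.30 CPM fell within the stroke range (log2 change -2.37 ± 0.58, adjusted p = 0.0347). The call ended in 9 of the 14 runs without a library, with adjusted p up to 0.0716 without stroke female 4. With naive male 3 and stroke male 2 both left out the adjusted p was 0.083. Its promoter is shown because Cish is a known target of STAT5: the 250 bases before the start (chr8:116850719-116850968, plus strand, RefSeq, build GRCr8) hold 4 matches to TTCNNNGAA, the letters of a STAT5 site, which are in capitals and lie between 241 and 111 bases before the start. At least 1 such match was present in 7.52% of all promoters and in 5.94% of those of genes tested, on either strand. The last of the 4 overlaps a CCGGAAG match at 120 to 114 bases.
Cish: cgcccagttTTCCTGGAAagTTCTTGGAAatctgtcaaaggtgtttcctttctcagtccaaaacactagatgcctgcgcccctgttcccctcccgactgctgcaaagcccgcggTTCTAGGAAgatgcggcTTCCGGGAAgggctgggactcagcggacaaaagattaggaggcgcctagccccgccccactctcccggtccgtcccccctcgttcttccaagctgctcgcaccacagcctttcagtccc
Ghr, the growth hormone receptor, rose by 0.63 ± 0.16 (adjusted p = 0.037), a call that ended in 10 of the 14 runs. Il2ra, the alpha chain of the interleukin 2 receptor and itself a STAT5 target in T cells, ranged from 5.45 to 17.4 CPM in the naive libraries (median 12.96) and 1.48 to 5.95 CPM in the stroke libraries (median 3.78). The groups overlapped by a narrow margin (log2 change -1.74 ± 0.23, adjusted p = 0.00269). Of the 17 genes in the growth hormone, IGF and STAT5 list, Cish and Ghr were the only calls, and its median was -0.24. Of 24 genes of interleukin 6 and STAT3 signalling, Cish was the only call, where 4.66% of all genes were called.

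Among called genes with an assigned symbol and an average log2 CPM of at least 1, Gulo had the largest decrease. It encodes the enzyme that completes vitamin C synthesis in rats and is best known from liver. It ranged from 9.98 to 62.7 CPM in the naive libraries (median 39.0) and 0.533 to 13.8 CPM in the stroke libraries (median 1.22), where stroke female 2 alone reached into the naive range (log2 change -3.72 ± 0.57, adjusted p = 0.0052). The hepatocyte marker Alb was at 38.8 to 388 CPM in naive and at 28.8 to 261 CPM in stroke libraries (log2 change -0.23 ± 0.40, adjusted p = 0.777). Gprin3, of a family that binds activated G proteins in neurons, ranged from 146 to 732 CPM in the naive libraries (median 383) and 24.8 to 124 CPM in the stroke libraries (median 31.4). No library overlapped, and the level was 8.29-fold lower after stroke (log2 change -3.05 ± 0.41, adjusted p = 0.00269). Zim1, a zinc finger gene that is imprinted in mice, ranged from 58.8 to 133 CPM in the naive libraries (median 77.4) and 11.4 to 45.7 CPM in the stroke libraries (median 25.6), also apart (log2 change -1.69 ± 0.26, adjusted p = 0.0052). Paqr5, a membrane progestin receptor, had the smallest adjusted p of all decreases (log2 change -1.45 ± 0.18, adjusted p = 0.00198), with overlap. Cracr2b, a regulator of store-operated calcium channels, fell from a median of 103 to 40.9 CPM (log2 change -1.49 ± 0.26, adjusted p = 0.00827), and Adamts16, a secreted metalloprotease, from 4.45 to 1.16 CPM (log2 change -1.76 ± 0.36, adjusted p = 0.0165). Gadd45g, a growth arrest gene, ranged from 28.6 to 50.8 CPM in the naive libraries (median 37.5) and 9.45 to 24.8 CPM in the stroke libraries (median 15.4), without overlap (log2 change -1.33 ± 0.21, adjusted p = 0.00595). Tnr, a matrix glycoprotein of the nervous system (log2 change -3.17 ± 0.78, adjusted p = 0.0362), and Zpld1 (log2 change -1.80 ± 0.47, adjusted p = 0.0457) also fell, with overlap, and their calls ended in 10 and 11 of the 14 runs.

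Among the other large increases, Trem3, a receptor of myeloid cells in mice, ranged from 1.15 to 6.38 CPM in the naive libraries (median 2.56) and 5.11 to 28.9 CPM in the stroke libraries (median 13.4) (log2 change 2.24 ± 0.40, adjusted p = 0.00849), and Pigz, a mannosyltransferase of lipid anchors, from 3.67 to 8.06 CPM in the naive libraries (median 5.14) and 7.99 to 46.1 CPM in the stroke libraries (median 27.5) (log2 change 2.14 ± 0.36, adjusted p = 0.0078). Tm6sf2, which helps to load lipid onto lipoproteins in liver, ranged from 2.23 to 5.18 CPM in the naive libraries (median 4.13) and 6.12 to 17.5 CPM in the stroke libraries (median 13.7), without overlap (log2 change 1.70 ± 0.25, adjusted p = 0.00393). Dusp9, a phosphatase of MAP kinases, ranged from 0.249 to 1.31 CPM in the naive libraries (median 1.07) and 1.53 to 5.95 CPM in the stroke libraries (median 3.28), also without overlap (log2 change 1.95 ± 0.39, adjusted p = 0.0155). Ccne1, cyclin E1, rose by 1.77 ± 0.40 (adjusted p = 0.0263, lost in 4 of the 14 runs). Hspb7, a small heat shock protein of muscle (log2 change 2.02 ± 0.50, adjusted p = 0.0388), and the kinase Sbk1 (log2 change 1.84 ± 0.47, adjusted p = 0.0445) were called with all libraries but in only 5 and 3 of the 14 runs. Zfp423, a factor that commits precursors to the fat lineage, was also called (log2 change 0.76 ± 0.15, adjusted p = 0.0155). It was the only call among 17 genes of fat cell identity, against 4.66% of all genes, while Pparg stood at 0.21 and Cebpa at 0.05.

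Genes of cellular stress are set beside the 3.35% of all genes called higher and 1.31% called lower. In the ATF4 list 3 of 23 members rose: Pycr1, of proline synthesis (log2 change 1.32 ± 0.21, adjusted p = 0.0052, groups apart), Phgdh, the first enzyme of serine synthesis (log2 change 0.86 ± 0.20, adjusted p = 0.0297, lost in 9 of the 14 runs) and Atf5 (log2 change 0.54 ± 0.12, adjusted p = 0.0293, lost in 6 of the 14 runs). In the NRF2 list 2 of 28 rose, among them Nqo1 (log2 change 0.55 ± 0.12, adjusted p = 0.0204, lost in 1 of the 14 runs, that without naive female 1). Hsf1, the master factor of the heat shock response, fell by 0.44 ± 0.09 (adjusted p = 0.0175). Of 30 genes of protein folding in the endoplasmic reticulum 0 passed by edgeR (14 higher and 1 lower at an unadjusted p under 0.05, 3 called by DESeq2), and their median was 0.17. Steap3, an iron reductase, and Alas1, which starts haem synthesis, rose by 0.50 and 0.52, the second lost in 11 of the 14 runs. Ctsd, a lysosomal protease, rose by 0.66 ± 0.15 (adjusted p = 0.0241, lost in 5 of the 14 runs).

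Stress hormones from the adrenal glands act on fat through the glucocorticoid receptor. Calls among glucocorticoid and circadian genes are set beside 4.66% of all genes called (3.35% higher, 1.31% lower). Of 27 genes in the glucocorticoid list 0 passed by edgeR (5 higher and 2 lower at an unadjusted p under 0.05, 3 called by DESeq2), and the median was 0.05. Fkbp5, a sensitive target, stood at 0.82 ± 0.24 (adjusted p = 0.064), above the naive mean of its sex in 6 of 7 stroke libraries. Tsc22d3 stood at 0.48 ± 0.17 (adjusted p = 0.124), above that mean in 7 of 7, and Per1 at 0.04 ± 0.28 (adjusted p = 0.956; -0.14 without naive female 2). Of the circadian list 1 of 19 passed, the nuclear receptor Rora (log2 change 0.47 ± 0.12, adjusted p = 0.0465), whose call ended in 12 of the 14 runs. At an unadjusted p under 0.05 (edgeR), 10 of the 19 circadian genes were higher and 2 lower. The median of that list was 0.465, with a range from -1.004 to 1.561.

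The inflammatory lists gave few calls. Only 4.66% of all genes tested were called, so 0 or few calls in lists of this size do not show that their genes stayed unchanged. Of 26 cytokine and NF-kB genes, 17 chemokines, 25 complement genes, 14 acute phase genes and 11 genes of MHC class II presentation, 0 were called by edgeR. At an unadjusted p under 0.05 there were 1 higher and 1 lower cytokine and NF-kB gene, 2 higher and 4 lower chemokines, 2 higher and 1 lower complement genes, 3 higher acute phase genes and 4 lower MHC class II genes. DESeq2 called 1 cytokine and NF-kB gene, 3 chemokines, 1 complement gene, 1 acute phase gene and 0 MHC class II genes. Ccl2, which draws in monocytes, stood at 0.83 ± 0.46 (adjusted p = 0.307). Lcn2, an acute phase protein, ranged from 4.30 to 62.4 CPM in the naive libraries (median 9) and 5.44 to 208 CPM in the stroke libraries (median 25.5), with broad overlap (log2 change 1.43 ± 0.63, adjusted p = 0.206). Il6 had counts in 12 libraries and too few to be tested. Of 42 interferon-stimulated genes 38 had a negative change, and the median was -0.42. The 2 called were Mx2 (log2 change -1.34 ± 0.36, adjusted p = 0.0498) and Rsad2 (log2 change -0.92 ± 0.24, adjusted p = 0.0448), both antiviral, and their calls ended in 12 and 11 of the 14 runs. Naive male 3 was high in this list, at a summed 2900 against 1250 to 1620 CPM, and without it the median was -0.19. The MHC class II list had a median of -1.47 with all libraries and -0.31 without naive male 3. In females alone its median was -0.07, and in males it was -3.13.

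Calls among matrix and cell division genes are set beside 4.66% of all genes called (3.35% higher, 1.31% lower). Of 40 matrix genes 0 passed by edgeR (1 higher and 6 lower at an unadjusted p under 0.05, 5 called by DESeq2), and their median was -0.17. In matrix remodelling Plod1, which hydroxylates collagen lysines, was the only call of 31 (log2 change 0.52 ± 0.09, adjusted p = 0.00896). Fst, an inhibitor of activins, was the only call of 27 in the TGF-beta list (log2 change -0.58 ± 0.14, adjusted p = 0.0329), lost in 8 of the 14 runs. Genes of DNA replication and mitosis were positive for 42 of 42 members, with a median of 0.83, and Ccne1 was the only call. Mki67 stood at 1.34 ± 0.73 (adjusted p = 0.3). The list's summed level was 267 to 1099 CPM in the naive group, where naive male 3 was the highest, and 296 to 1573 CPM in the stroke group. Its median was 1.25 without naive male 3 and 0.49 without stroke male 2. The G1 regulators that rose were Ccnd3 (log2 change 0.28 ± 0.06, adjusted p = 0.0194, groups apart) and Ccng1 (log2 change 0.49 ± 0.09, adjusted p = 0.00962).

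Markers of the other cell types that the fat could hold had no call in 19 of 20 lists, and in the adipocyte list Lep was the call. Of all genes tested 4.66% were called, so lists this short would often have none. The median change was 0.03 for adipocyte markers and -0.17 for mesothelial markers, the second 0 without stroke female 2. For macrophage markers it was 0.02 with all libraries, 0.50 without naive male 3 and -0.15 without stroke male 2. Summed neutrophil markers were 71.7 to 344 CPM in naive and 153 to 527 CPM in stroke libraries, with a median change of 0.36 over 6 genes. Without naive male 3 that median was 1.14, and without stroke male 2 it turned to -0.05. Smooth muscle markers had a median of -0.86 with all libraries, -0.39 without naive male 2, -0.19 in females and -2.07 in males, with a summed level of 1808 to 18710 CPM in naive and 1397 to 6234 CPM in stroke libraries. T and NK cell markers had a median of -0.62 over 8 genes, at 116 to 417 and 120 to 186 CPM. Erythroid markers had a median of 0.36 over 7 genes, and of 0.10 without stroke female 2.

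The test for a different response in males and females called 0 of 16383 genes by edgeR, with 1666 genes at an unadjusted p under 0.05, and DESeq2 called 116. The gene with the smallest p was Nhsl2, at 0.36 in females and -0.65 in males (adjusted p = 0.319), followed by Mmrn2, an endothelial matrix protein, at 0.74 and -0.35 (adjusted p = 0.319). Gfra3, a receptor for neurotrophic factors, stood at 0.70 and -2.51 (adjusted p = 0.319) and B3gnt6 at 0.14 and 1.13 (adjusted p = 0.319).

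Animals exposed to ethanol before birth gave 16 more libraries of this fat, 8 of them after stroke, and their response was set beside that of the controls in 1 fit of 30 libraries with no animal in common. The difference between the responses was called for 0 of 18425 genes by edgeR (1129 at an unadjusted p under 0.05) and for 2 by DESeq2, LOC103694176 and Slc34a1. Cpt1b rose in both, by 1.97 ± 0.15 in controls and by 1.49 ± 0.14 after ethanol, Gulo fell in both (-3.95 ± 0.52 and -3.76 ± 0.46), and so did Gprin3 (-2.98 ± 0.56 and -2.01 ± 0.50). For Lep the estimates were 1.62 ± 0.48 and -0.24 ± 0.43, neither of which passed in that fit (adjusted p = 0.0523 and 0.774), with a difference of -1.86 ± 0.64 that did not pass (adjusted p = 0.785). In that fit 4.26% of all genes were called in controls (3.2% higher, 1.06% lower) and 6.36% after ethanol (3.32% higher, 3.04% lower). Respiratory chain subunits were called higher for 37 of 63 in controls and for 5 of 63 after ethanol, with medians of 0.39 and 0.12; the difference between these counts was not tested. None of the subunits named here passed the test of the difference: for Cox6b1 it was -0.35 ± 0.13 (adjusted p = 0.785) and for Atp5po -0.30 ± 0.14 (adjusted p = 0.785).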

How the data were processed

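RNA of mesenteric fat was sequenced from 14 control animals, and 16 libraries of ethanol-exposed animals entered 1 comparison. Trimmomatic, HISAT2, HTSeq and DESeq2 and the rn7 build are named, per the submitters' processing notes, with no versions or settings. The deposited read counts per gene are whole numbers for 34322 entries. Whether the authors counted by strand is not given in the sources used here, so overlapping or antisense genes cannot be told apart. The authors' table of adjusted p-values and log2 fold changes was used as a check only. A further 90 per-sample columns of normalized values were not used.

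Here 76 nuclear and 2 mitochondrial rRNA entries were removed, and genes were kept by filterByExpr (minimum count 10). Libraries were scaled by TMM, and stroke was tested with sex as a covariate by edgeR 4.0.16's quasi-likelihood test (R 4.3.3, limma 3.58.1), with Benjamini-Hochberg adjustment over all genes tested and a threshold of 0.05. DESeq2 1.42.0, other scalings and filters, and fits without a library were alternatives. The procedure was tested on simulated data. Errors are standard errors of the log2 change, taken as its absolute size divided by the square root of the quasi-likelihood F statistic. CPM is not per gene length, so levels of different genes are not compared. No 2 libraries agreed within sampling noise: the chi-square per degree of freedom was 11.1 to 77.8 over 18 pairs of 1 group and sex. Nothing ties animals to separate litters, so p-values measure the spread between these animals.

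The genes named were the 10 largest increases and 10 largest decreases with an average log2 CPM no lower than 1 that were called, up to 4 called members of each list by p, 16 fixed genes, and the 5 smallest p of each interaction; others were named after their values were seen, and some genes under the rule are not reported here. The members and lists were chosen with earlier results of these data known, and 12 lists were added after values were seen. Promoters came from RefSeq (GRCr8), matched by symbol for 11924 of the genes tested.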

Additional observations from a re-analysis of the deposited data

Results flagged for a closer look

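A single library stood far from the other 6 of its group in 10 of 168 gene values and 17 of 120 list sums checked. Chance alone gives about 1 in 20 groups. No explanation was tested for any of them.

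Naive male 3 accounted for 10 of these. Its summed level was 4190 CPM for MHC class II genes (255 to 545 CPM in the other naive libraries), 5960 CPM for macrophage markers (1130 to 1680), 1100 CPM for DNA replication and mitosis (267 to 320), 2900 CPM for interferon-stimulated genes (1250 to 1620), 9740 CPM for lysosome and autophagy (4680 to 5960), 417 CPM for T and NK cell markers (116 to 168) and 347 CPM for dendritic cell markers (125 to 170). In the same animal Lcn2 was at 62.4 CPM (4.30 to 9.65 in the others), Mx2 at 131 CPM (15.4 to 34.5) and Ctsd at 886 CPM (376 to 496).

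Stroke male 2 had matrix genes at a summed 42200 CPM (21800 to 26200 in the other stroke libraries), matrix remodelling genes at 7010 CPM (4410 to 5040), metallothioneins and zinc transporters at 961 CPM (318 to 451), interferon-stimulated genes at 1670 CPM (1230 to 1340) and hepatocyte markers at 34.3 CPM (131 to 285).

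Cish was at 4.30 CPM in naive male 2, below 48.4 to 84.4 CPM in the other naive libraries, and the TGF-beta list of that animal was at 4990 CPM (2180 to 2670). In stroke female 3, Elovl6 was at 135 CPM (33.2 to 59.6), Cox6b1 at 102 CPM (117 to 128) and Angptl4 at 85.9 CPM (191 to 327). Stroke female 2 had Gprin3 at 124 CPM (24.8 to 47.4) and mesothelial markers at 695 CPM (1710 to 2520). Naive female 2 had Uqcr10 at 67.9 CPM (50.1 to 55.1) and Per1 at 39.7 CPM (118 to 218). The glucocorticoid list was at 5190 CPM in naive male 1 (4230 to 4550), the cyclin list at 1360 CPM in stroke male 1 (1460 to 1530) and the growth hormone list at 2880 CPM in stroke male 3 (3970 to 4920).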

How the results depend on the processing

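None of the 72 called genes named by the rule changed direction under the alternatives run, and between 5 and 24 of these calls were lost when a library was left out. Per1, which was not called, had a change near 0 whose sign varied. DESeq2 called 1494 genes (905 higher, 589 lower, so 60.6% higher against 72.0% by edgeR), 179 list members, 15 citrate cycle and 2 cytosolic ribosomal genes, and 116 genes for sex and 2 for exposure. With no filter on low counts 508 genes were called (101 lower; 80.1% higher), and without the sex covariate 496 (124 lower). The fit of 30 libraries called 3 genes of fatty acid and triglyceride synthesis and 1 cytosolic ribosomal gene. With naive male 3 and stroke male 2 both left out, chosen after seeing the data, 140 genes were lower.

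Leaving out each library gave 339 to 1068 genes called (263 to 761 higher, 76 to 307 lower) and 58 to 142 list members. By list it gave 18 to 48 respiratory chain subunits, 5 to 10 genes of fatty acid and triglyceride synthesis, 3 to 8 of cholesterol synthesis and 5 to 13 of the citrate cycle list. The cause of these moves was not tested.

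Replicate numbers are shared between the groups, and the labels do not say whether they pair animals. Correlations of the 7 pairs ran from -0.293 to 0.219, 3 were over 0.1, and 3 of 7 samples matched their own number best. A check of 7 pairs cannot exclude a link such as a shared litter. With the replicate number as a block, 326 genes were called (226 higher, 100 lower), and 291 of them were called in the main fit. They held 65 list members, 22 respiratory chain, 4 fatty acid and triglyceride, 3 cholesterol and 4 citrate cycle genes.

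Depth was 5.87 to 18.0 M non-rRNA counts, and the median standard error of a log2 change was 0.13 for genes with an average log2 CPM of at least 1.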

Other observations

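Lists drawn up after the values were seen touch biology not described above, and their counts are descriptions only, beside 3.35% of all genes called higher and 1.31% lower. Of 8 genes of haem synthesis 4 were called higher and 0 lower, and the median was 0.36. Of 12 glycogen genes 4 rose, including the branching enzyme Gbe1 (log2 change 0.74 ± 0.14, adjusted p = 0.011) and the phosphorylase Pygl (log2 change 0.81 ± 0.17, adjusted p = 0.0206). Of 10 genes of mitochondrial calcium uptake 4 rose, including the channel Mcu (log2 change 0.39 ± 0.08, adjusted p = 0.0128) and Letm1 (log2 change 0.56 ± 0.08, adjusted p = 0.00393).

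Signalling lists of the same kind held mostly decreases. In the Notch list 3 of 19 fell and 1 rose: the ligand Dll1 (log2 change -0.84 ± 0.15, adjusted p = 0.00962) and the feedback gene Nrarp (log2 change -0.79 ± 0.14, adjusted p = 0.00975) were fully lower in stroke libraries. In a list of 20 genes of Wnt signalling 4 fell: Frzb, a secreted antagonist (log2 change -1.19 ± 0.19, adjusted p = 0.00574), Daam1, Prickle2 and Gpc3. Of 21 imprinted genes 3 fell, Zim1, Peg3 (log2 change -0.94 ± 0.17, adjusted p = 0.011) and Plagl1 (log2 change -0.74 ± 0.09, adjusted p = 0.00213), and 1 rose, Slc22a18 (log2 change 0.39 ± 0.10, adjusted p = 0.047).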
